A study of Mus musculus with 12 samples.

Results

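The 10 genes described here mark the macrophages that reside in the spleen: Cd5l, Cd163, Mrc1, Marco, Siglec1, Adgre1, Csf1r, C1qa, C1qb and Axl. They were chosen by name, with earlier results of these data known. Their counts and medians beside those of all genes are therefore descriptions. The probe sets used are those whose platform gene symbol is one of these genes, and all 10 genes were found. The markers are 10 of the 12393 genes and 17 of the 22626 probe sets measured.

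Resident splenic macrophages clear old red cells in the red pulp, trap blood-borne particles in the marginal zone and take up dying lymphocytes in the white pulp. They depend on signals through the CSF1 receptor and are recognised by scavenger receptors, lectins and complement C1q on or around them. Lipopolysaccharide (LPS), a component of Gram-negative bacterial outer membranes, activates macrophages through Toll-like receptor signalling. Dusp1 encodes a phosphatase that switches off the MAP kinases used in that signalling.

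The spleens of 12 mice were profiled on Affymetrix MOE430A 2.0 arrays, with 1 array for each mouse and 3 mice in each of 4 groups. The groups were mice labelled DUSP1-/- at 6 h after intraperitoneal LPS at 10 µg per g, untreated mice labelled DUSP1-/-, wild-type (DUSP1+/+) mice at 6 h after the same LPS, and untreated wild-type mice. The controls had no injection according to the labels, so LPS and the act of injection cannot be told apart. Strain, age and sex were not given in the sources used here, and whole spleen mixes many cell types. Values are the deposited RMA intensities, which are background-corrected and summarised brightness values of a probe set in arbitrary units on a linear scale. Differences are on the log2 scale, ± is limma's standard error, and a gene is said to have risen or fallen where limma's adjusted p was under 0.05.

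The targeted gene did not check the genotype labels. Dusp1 read 4963, 2948 and 4996 in the labelled knockout LPS arrays, 677, 1528 and 1443 in labelled knockout controls, 2248, 2142 and 2116 in wild-type LPS arrays and 479, 1354 and 627 in wild-type controls. All 3 labelled knockout LPS arrays were thus above all 3 wild-type LPS arrays, by 0.95 ± 0.41 (limma adjusted p = 0.528). Whether the probe set lies in the part of the gene that was altered is not given in the sources used here, so knockout below means the label and no more.

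Transcripts of other tissues also varied between arrays. The summed intensity of 10 hepatocyte markers ran from 1417 to 7600 in labelled knockout LPS arrays, from 279 to 16148 in labelled knockout controls, from 942 to 4476 in wild-type LPS arrays and from 266 to 3867 in wild-type controls. The summed intensity of 9 lung epithelium markers ran from 1362 to 2675 in labelled knockout LPS 1 and 3 and labelled knockout controls 2 and 3, and from 210 to 502 on the other arrays. That of 9 pancreatic acinar markers reached 33038 and 4424 in labelled knockout controls 1 and 3 and 65624 in wild-type control 1, and lay between 200 and 674 elsewhere. Wild-type controls 2 and 3 stood apart in sex-linked transcripts, with Xist at 35 and 47, against 1101 to 3949 on the other 10 arrays. Eif2s3y, a gene of the Y chromosome, read 316 and 53 on them, against 7 to 10 on the other 10. Comparisons with the wild-type controls may therefore mix in a sex difference, which was not tested. In all 4 groups the array with replicate number 2 had the most hepatocyte transcripts. The results given without the arrays with most hepatocyte transcripts leave out array 2 of both LPS groups and of the labelled knockout controls. Changes without such arrays are given for the main results, by their values or by the number of settings that kept a call.

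LPS was followed by lower levels of several of these markers. Averaged over both genotypes, 5 of the 10 fell (Cd5l, Cd163, Mrc1, Adgre1 and Csf1r), 1 rose (Marco) and 4 were not called (Siglec1, C1qa, C1qb and Axl). Of all 12393 genes, 22.9% were called in that averaged comparison, 14.3% as lower and 8.52% as higher. The median difference of the 10 markers was -0.63, against -0.04 for all genes. Over 28 alternative settings of processing and arrays, Cd5l and Csf1r kept the averaged call in all. Cd163 kept it in 27, and Mrc1, Adgre1 and Marco in 26. In bulk spleen RNA, fewer cells of a type and less RNA per cell cannot be told apart.

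**Figure D1:**
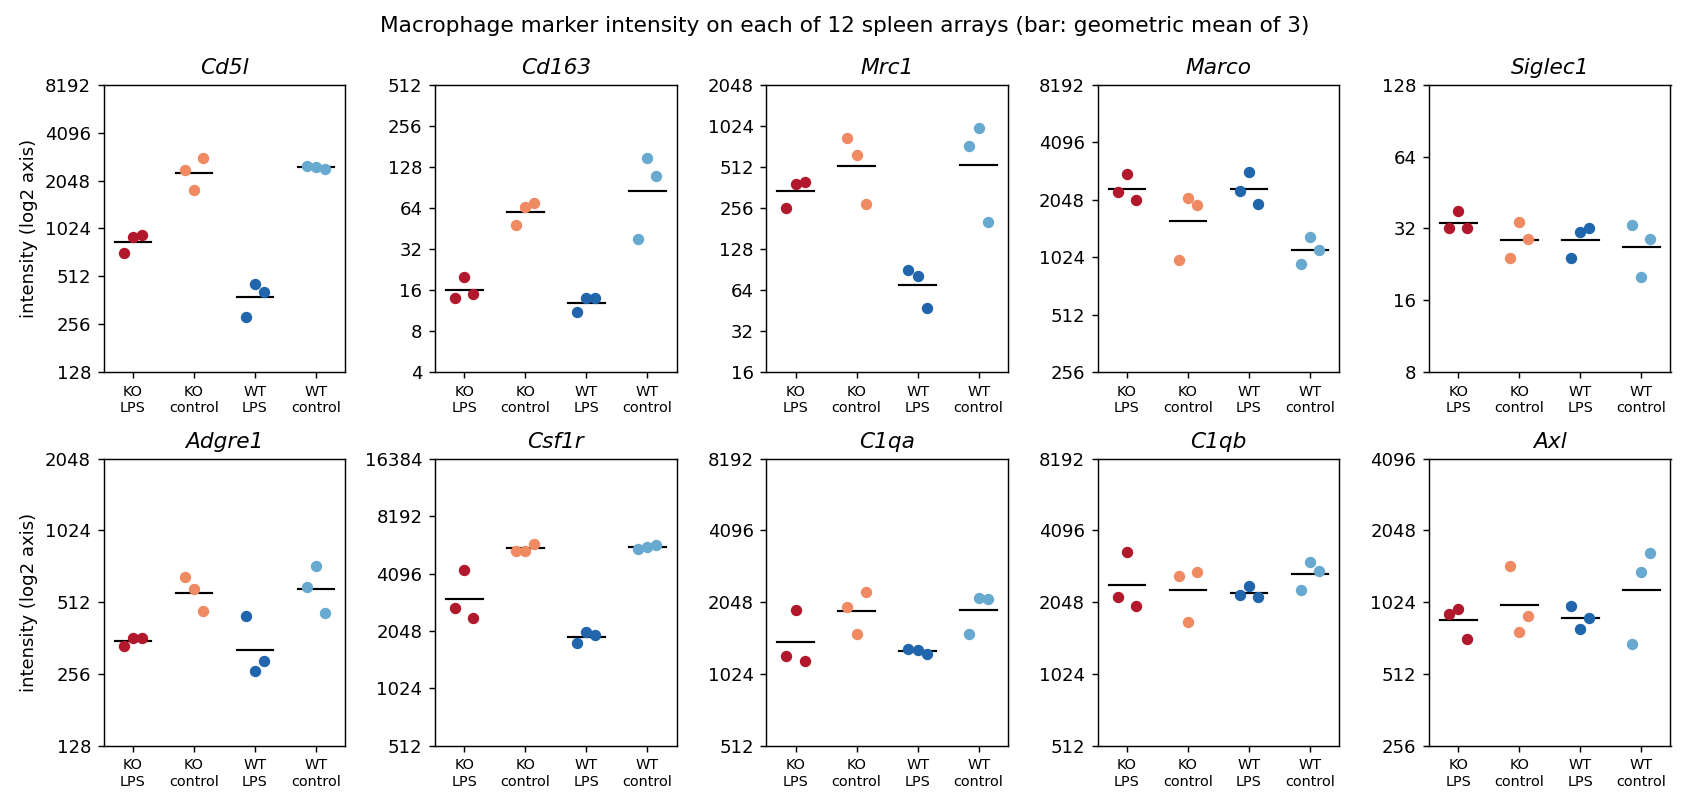
Intensity of each of the 10 markers on every array (log axis), with the groups in the order labelled knockout LPS, labelled knockout control, wild-type LPS and wild-type control; each point is 1 mouse and each bar the geometric mean of 3. Cd5l, Cd163, Adgre1 and Csf1r are lower on every LPS array than on every control array of the same genotype, and Siglec1 is dim on all arrays.

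Cd5l encodes a secreted protein with scavenger receptor cysteine-rich domains, known as apoptosis inhibitor of macrophage. It read 713, 909 and 933 in labelled knockout LPS arrays and 2395, 1780 and 2845 in labelled knockout controls. In wild-type mice it read 286, 461 and 408 after LPS and 2534, 2486 and 2419 in controls. The LPS arrays lay below the controls without overlap in both genotypes. Cd5l fell to 36.8% of the control level in labelled knockout mice (difference -1.44 ± 0.23, limma adjusted p = 0.00242) and to 15.2% in wild-type mice (-2.72 ± 0.23, limma adjusted p = 9.51e-05). The fall in labelled knockout mice was past the threshold with any 1 array left out, but not without the 3 arrays with pancreatic transcripts (-1.07, adjusted p = 0.0501) or the 4 with lung transcripts (-1.40, adjusted p = 0.120). Both exclusions leave 1 labelled knockout control, and the lung exclusion also leaves 1 labelled knockout LPS array, here and for the genes below; a lone array is assumed to vary like the other groups.

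Cd163 encodes the receptor that takes up complexes of haemoglobin and haptoglobin. It read 14, 20 and 15 in labelled knockout LPS arrays and 48, 65 and 70 in labelled knockout controls. The wild-type values were 11, 14 and 14 after LPS and 38, 148 and 109 in controls. After LPS it was among the dimmest values on the arrays, where 30.8% of all values lay under 20, so the size of its fall is limited by the background. The difference was -1.90 ± 0.41 in labelled knockout mice (limma adjusted p = 0.0130) and -2.72 ± 0.41 in wild-type mice (limma adjusted p = 0.00370). Without labelled knockout LPS 1 the labelled knockout call was lost (adjusted p = 0.0571), and with values under 32 set to 32 it was lost in labelled knockout (adjusted p = 0.286) and wild-type mice (adjusted p = 0.131). It was also lost in labelled knockout mice without the arrays with lung transcripts (-1.26, adjusted p = 0.592) and without those with most hepatocyte transcripts (-2.0, adjusted p = 0.0808). Without wild-type controls 2 and 3, which leaves 1 wild-type control, the wild-type fall was smaller (-1.56).

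Mrc1, the mannose receptor, binds glycans on microbes and on secreted glycoproteins. It read 254, 387 and 397 in labelled knockout LPS arrays and 834, 627 and 272 in labelled knockout controls. In wild-type mice it read 90, 81 and 47 after LPS and 733, 984 and 203 in controls. The groups overlapped in labelled knockout mice and did not in wild-type mice. Its difference was -0.62 ± 0.58 in labelled knockout mice (95% interval -1.89 to 0.65, limma adjusted p = 0.583) and -2.91 ± 0.58 in wild-type mice (limma adjusted p = 0.0136). In wild-type mice the call depended on wild-type LPS 3 (adjusted p without it = 0.0751), wild-type control 1 (adjusted p = 0.0530) or wild-type control 2 (adjusted p = 0.0565). It was also past the threshold neither without the arrays with lung transcripts, all of them labelled knockout (difference -2.91, adjusted p = 0.0535), nor without those with most hepatocyte transcripts (-3.02, adjusted p = 0.0784). Over 29 alternatives the wild-type difference ran from -3.60 to -2.46. In labelled knockout mice it was -0.28 without control 1, -0.41 without LPS 1 and -1.09 without control 3.

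Marco encodes a class A scavenger receptor of marginal zone macrophages that binds bacteria, and it was the only 1 of the 10 called higher after LPS. It read 2244, 2780 and 2038 in labelled knockout LPS arrays and 991, 2088 and 1914 in labelled knockout controls. The wild-type LPS arrays read 2289, 2868 and 1946 and the wild-type controls 947, 1304 and 1112. The groups overlapped in labelled knockout mice (difference 0.56 ± 0.28, limma adjusted p = 0.255), while all wild-type LPS arrays were above all wild-type controls (1.07 ± 0.28, limma adjusted p = 0.0489). That wild-type call was lost when any of 10 of the 12 arrays was left out in turn (labelled knockout controls 1 and 2 being the exceptions), with adjusted p up to 0.182. The rise averaged over both genotypes (0.82 ± 0.20, limma adjusted p = 0.0155) was past the threshold with any 1 array left out, but not without the arrays with pancreatic transcripts (0.56, adjusted p = 0.0616) or with most hepatocyte transcripts (0.78, adjusted p = 0.0513).

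The stretches just before the start sites of these scavenger and lectin genes are shown because Cd5l, Cd163 and Mrc1 fell and Marco rose. Each is 200 bases, positions -220 to -21 from the start, from RefSeq promoters on GRCm38.p6, read 5′ to 3′ on the gene's strand. They lie at chr3:87357661-87357860 on the plus strand (Cd5l), chr6:124304431-124304630 on the plus strand (Cd163), chr2:14229194-14229393 on the plus strand (Mrc1) and chr1:120505045-120505244 on the minus strand (Marco). Capitals mark every match on either strand to a PU.1 core (AGGAAGT), an AP-1 site (TGANTCA), an interferon-stimulated response element (GAAANN followed by GAAA) or a Maf recognition core (TGCTGA).
Cd5l: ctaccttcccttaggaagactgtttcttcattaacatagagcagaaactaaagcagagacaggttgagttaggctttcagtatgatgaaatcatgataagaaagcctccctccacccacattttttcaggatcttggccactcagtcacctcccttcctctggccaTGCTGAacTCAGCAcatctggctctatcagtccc
Cd163: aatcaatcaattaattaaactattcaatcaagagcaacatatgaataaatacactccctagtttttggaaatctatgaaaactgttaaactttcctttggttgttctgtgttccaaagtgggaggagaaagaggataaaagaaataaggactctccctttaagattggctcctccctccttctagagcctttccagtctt
Mrc1: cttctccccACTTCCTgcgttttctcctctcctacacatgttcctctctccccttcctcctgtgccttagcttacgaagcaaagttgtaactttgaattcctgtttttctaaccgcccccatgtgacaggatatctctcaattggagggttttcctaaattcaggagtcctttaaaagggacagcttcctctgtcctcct
Marco: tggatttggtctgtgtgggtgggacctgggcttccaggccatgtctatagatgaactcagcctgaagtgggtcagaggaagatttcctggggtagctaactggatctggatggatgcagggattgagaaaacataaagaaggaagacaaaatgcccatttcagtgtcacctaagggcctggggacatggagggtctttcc
Cd5l held 2 Maf cores, at -54 to -49 and -46 to -41, on opposite strands. Mrc1 held 1 PU.1 core, at -211 to -205, on the opposite strand to the gene. Cd163 and Marco held none of the 4 motifs in this window. Of 32851 promoter stretches of the same length, 13.2% held a Maf core, 6.1% a PU.1 core, 5.6% an AP-1 site and 2.3% the interferon element. Promoters of 6 of the 10 genes were searched. No entry was matched for Siglec1, Adgre1 and C1qa, and Csf1r was left out of the search. Of the other 2 genes searched, C1qb held a PU.1 core (-53 to -47) and a Maf core (-131 to -126) and Axl held none. A match is a description of the letters and not evidence of binding.

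Csf1r encodes the receptor for CSF1 and IL34, on which tissue macrophages depend, and Adgre1 encodes the surface protein F4/80 used to recognise mouse red pulp macrophages. Csf1r read 2710, 4257 and 2383 in labelled knockout LPS arrays and 5408, 5364 and 5865 in labelled knockout controls. In wild-type mice it read 1768, 2030 and 1942 after LPS and 5521, 5670 and 5755 in controls. The controls of both genotypes lay within a narrow band and above every LPS array. Csf1r fell to 54.5% of the control level in labelled knockout mice (-0.88 ± 0.20, limma adjusted p = 0.0167) and to 33.8% in wild-type mice (-1.56 ± 0.20, limma adjusted p = 0.00146). The labelled knockout call was lost without labelled knockout LPS 1 (adjusted p = 0.0774), LPS 3 (adjusted p = 0.0708) or control 3 (adjusted p = 0.0520), without the arrays with pancreatic transcripts (-0.83, adjusted p = 0.124) and without those with lung transcripts (-0.35, adjusted p = 0.587). Each of the other 2 Csf1r probe sets was also called lower in wild-type mice, by -1.90 and -1.68, and 1 of them in labelled knockout mice, by -1.16. With the remaining probe set the labelled knockout arrays overlapped (-0.86, limma adjusted p = 0.121).

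Adgre1 read 336, 363 and 363 in labelled knockout LPS arrays and 651, 579 and 472 in labelled knockout controls. The wild-type values were 448, 263 and 289 after LPS and 592, 725 and 461 in controls. Every LPS array was below every control of its genotype, although neither difference passed the threshold on its own (-0.67 ± 0.24, limma adjusted p = 0.0967 in labelled knockout mice, and -0.85 ± 0.24, limma adjusted p = 0.0607 in wild-type mice). Averaged over both genotypes Adgre1 fell by 0.76 ± 0.17 (limma adjusted p = 0.00896), a call kept with any 1 array left out but not without the arrays with lung transcripts (adjusted p = 0.122) or with most hepatocyte transcripts (adjusted p = 0.0688).

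C1qa and C1qb encode chains of C1q, the recognition unit of the classical complement pathway, which also tags dying cells. C1qa read 1213, 1897 and 1165 in labelled knockout LPS arrays and 1958, 1511 and 2258 in labelled knockout controls. In wild-type mice it read 1308, 1290 and 1246 after LPS and 1514, 2126 and 2117 in controls. The wild-type LPS arrays were below all wild-type controls, and the labelled knockout groups overlapped. Its averaged difference was -0.50 ± 0.16 (limma adjusted p = 0.0547), just short of the threshold, and it passed in 10 of 28 alternative settings. C1qb read 2147, 3341 and 1971 in labelled knockout LPS arrays, 2651, 1696 and 2748 in labelled knockout controls, 2196, 2396 and 2150 in wild-type LPS arrays and 2308, 3029 and 2767 in wild-type controls. These groups overlapped in both genotypes with this probe set. With each of the other 2 C1qb probe sets every wild-type LPS array was below every wild-type control, by -0.49 (limma adjusted p = 0.154) and -0.36 (limma adjusted p = 0.789), and labelled knockout arrays overlapped. The averaged difference of the first was -0.10 ± 0.17 (95% interval -0.48 to 0.28, limma adjusted p = 0.768). The genes lie next to each other in the RefSeq table, in the order C1qb, C1qc, C1qa. C1qc, which encodes the remaining C1q chain, had an averaged difference of -0.74 ± 0.21 (limma adjusted p = 0.0328), a call lost when any of 8 of the 12 arrays was left out (adjusted p up to 0.0850).

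Axl encodes a receptor for Gas6 that acts in the uptake of dying cells, and Siglec1 encodes sialoadhesin, which binds sialic acids and marks metallophilic macrophages. Axl read 916, 963 and 719 in labelled knockout LPS arrays, 1455, 766 and 896 in labelled knockout controls, 987, 788 and 881 in wild-type LPS arrays and 685, 1366 and 1655 in wild-type controls. The groups overlapped in both genotypes, and the averaged difference was -0.31 ± 0.23 (95% interval -0.82 to 0.21, limma adjusted p = 0.430). Siglec1 read between 20 and 38 on all 12 arrays with its brightest probe set and between 12 and 23 with the other 2, so these arrays give no usable level of it. A defining marker of metallophilic macrophages was therefore not measured above the dim end of the scale.

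Counted by genotype, 0 of the 10 markers rose and 3 fell in labelled knockout mice (Cd5l, Cd163 and Csf1r), where 15.2% of all genes were called, 5.54% as higher and 9.71% as lower. In wild-type mice 1 rose (Marco) and 4 fell (Cd5l, Cd163, Mrc1 and Csf1r), where 8.09% of all genes were called, 3.93% as higher and 4.16% as lower. The LPS arrays were below the controls without overlap for 4 markers in labelled knockout mice, against 17.6% of all genes, and for 6 in wild-type mice, against 14.8%. They were above the controls without overlap for 1 marker, Marco in wild-type mice, against 10.2% of all genes. The median difference of the 10 was -0.53 in labelled knockout mice and -0.71 in wild-type mice, against -0.06 and -0.03 for all genes. With the arrays shifted to 1 median, the median of all genes became 0.15 in labelled knockout mice and 0.09 in wild-type mice. The share of called genes that were higher then moved to 55.1%, against 36.3% as deposited, in labelled knockout mice, and to 59.5%, against 48.6%, in wild-type mice. Under that scaling the fall of Csf1r in labelled knockout mice was not called (-0.66, adjusted p = 0.0829), and the other calls named above for each genotype remained.

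**Figure D2:**
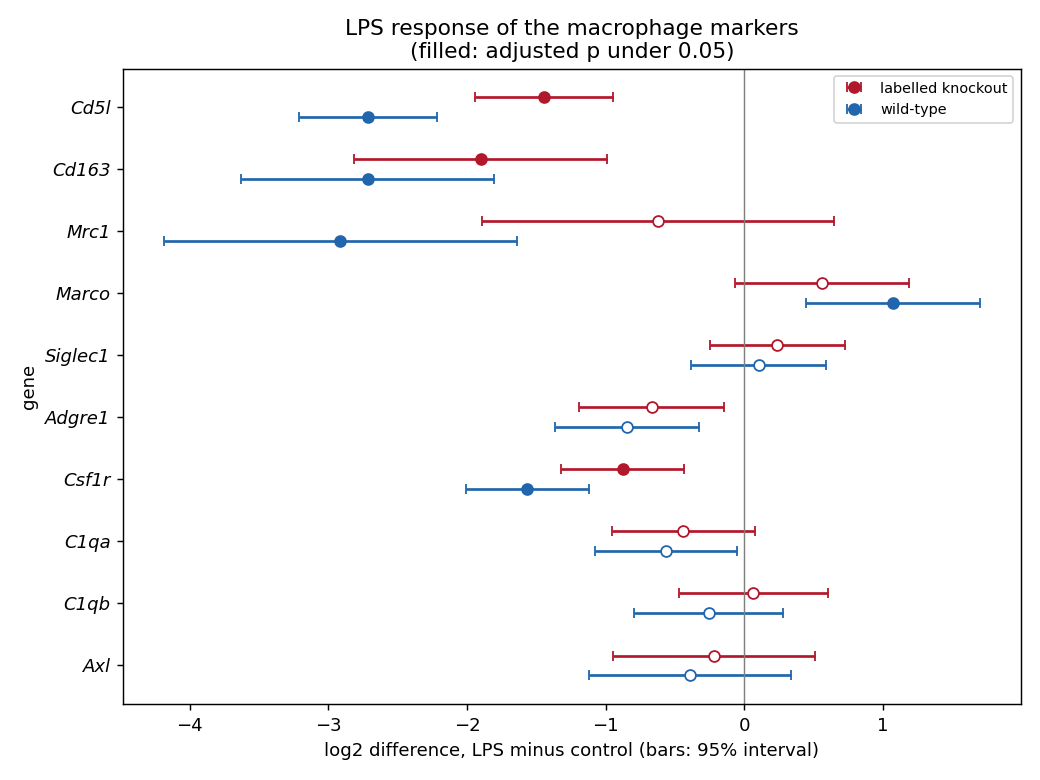
LPS minus control difference (log2) of each marker with its 95% interval, for labelled knockout mice (red, upper of each pair) and wild-type mice (blue, lower); filled points have an adjusted p under 0.05. Cd5l, Cd163 and Csf1r are filled in both genotypes, Mrc1 and Marco in wild-type mice only, and the wild-type point lies left of the labelled knockout point for 9 of the 10 markers, all but Marco.

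Between genotypes after LPS, limma called 0 of the 10 markers, while 0.363% of all genes were called. Cd5l, Mrc1 and Csf1r were higher on all 3 labelled knockout LPS arrays than on all 3 wild-type LPS arrays, and these 3 also had an unadjusted p under 0.05. Of all genes 8.73% were higher in this way and 10.2% had such a p. From the values given above, Cd5l stood at 2.24 times the wild-type level (1.16 ± 0.23, 95% interval 0.67 to 1.66, limma adjusted p = 0.0728). Mrc1 stood at 4.85 times that level (2.28 ± 0.58, 95% interval 1.00 to 3.55, limma adjusted p = 0.181) and Csf1r at 1.58 times (0.66 ± 0.20, 95% interval 0.22 to 1.10, limma adjusted p = 0.278). These values are of the Csf1r probe set that stands for the gene. Another Csf1r probe set was also higher without overlap (0.78, limma adjusted p = 0.337), while on the remaining one the arrays overlapped (0.78, limma adjusted p = 0.512). The Cd5l difference passed the threshold without labelled knockout control 2 (adjusted p = 0.0449), with cyclic loess scaling (adjusted p = 0.0449) and with array quality weights (adjusted p = 0.00645), and over 29 alternatives its adjusted p ran up to 0.282. That of Mrc1 passed with array quality weights alone (adjusted p = 0.00829).

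The hepatocyte and lung markers were higher in part of the same arrays. The mean log2 intensity of the 10 hepatocyte markers was 6.65, 9.14 and 8.44 in labelled knockout mice after LPS and 6.59, 8.31 and 6.18 in wild-type mice after LPS, and that of the 9 lung markers was 6.50, 4.56 and 5.88 against 4.80, 4.55 and 4.53. The summed intensity of 7 alveolar macrophage markers ran from 501 to 1117 in labelled knockout mice after LPS and from 374 to 791 in wild-type mice after LPS. That of 4 markers of liver macrophages ran from 165 to 271 and from 135 to 230 in the same groups. Among them Clec4f read between 16 and 21, Folr2 between 13 and 22 and Vsig4 between 10 and 31 over all 12 arrays. Clec1b was brighter, between 85 and 676. After LPS it read 112, 160 and 217 in labelled knockout mice, with wild-type values of 189, 85 and 105. With the hepatocyte mean as a covariate the differences were 1.17 for Cd5l, 2.26 for Mrc1 and 0.63 for Csf1r. With the lung mean as a covariate they were 1.30, 2.73 and 0.80 for the same genes. Without the arrays with most hepatocyte transcripts they were 1.26, 2.29 and 0.46. Csf1r differed by 0.41 without labelled knockout LPS 2, which had the highest hepatocyte mean of the LPS arrays. Without the 4 arrays with lung transcripts the differences of Cd5l, Mrc1 and Csf1r were 1.27, 2.47 and 1.16. That exclusion leaves this same labelled knockout LPS 2 as the only array of its group, assumed to vary like the others. Csf1r read 4257 on it, against 2710 and 2383 on labelled knockout LPS 1 and 3.

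**Figure D3:**
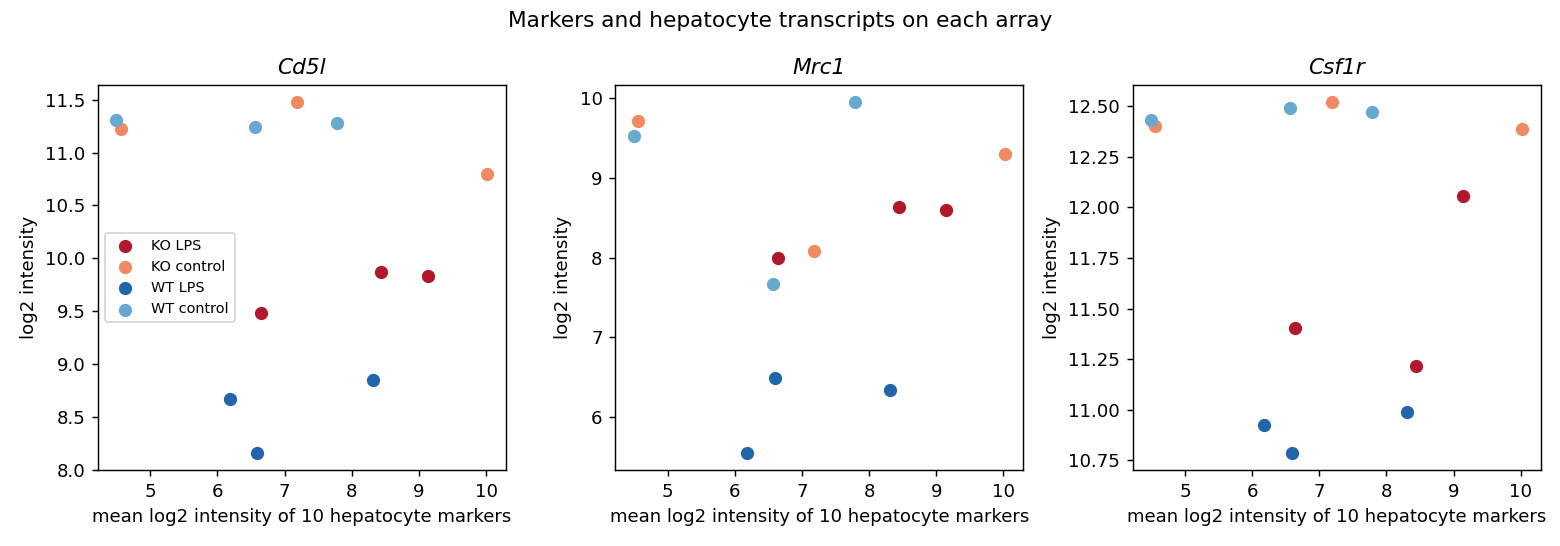
Log2 intensity of Cd5l, Mrc1 and Csf1r against the mean log2 intensity of the 10 hepatocyte markers on each of the 12 arrays, coloured by group. The 3 genes are shown because their labelled knockout LPS arrays all lie above their wild-type LPS arrays, so that order is no test.

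For the other 7 markers the intervals between genotypes after LPS included 0. Marco differed by -0.0023 (95% interval -0.63 to 0.62), Adgre1 by 0.13 (-0.40 to 0.65), C1qa by 0.12 (-0.40 to 0.63), C1qb by 0.11 (-0.43 to 0.65) and Axl by -0.04 (-0.76 to 0.69). These intervals still allow differences of some size, so equal levels are not shown. Cd163 and Siglec1 differed by 0.32 and 0.24 at intensities near background.

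In controls no difference between genotypes was detected in these markers. None of the 10 was called by limma, none had an unadjusted p under 0.05, and the arrays overlapped for all 10 with the probe set that stands for each gene, while 2.49% of all genes did not overlap and 0 were called. Another C1qb probe set was lower on every labelled knockout control than on every wild-type control (-0.40, limma unadjusted p = 0.0502), and it was not called. The median difference of the 10 was -0.04, against 0.07 for all genes. Cd5l differed by -0.11, Mrc1 by -0.01, Csf1r by -0.03 and Marco by 0.51. The difference between the LPS responses, tested as an interaction, was 1.27 ± 0.32 for Cd5l (limma adjusted p = 0.428), 2.29 ± 0.82 for Mrc1 (limma adjusted p = 0.786) and 0.69 for Csf1r (limma adjusted p = 0.887). None of the 10 interactions was called, 3 had an unadjusted p under 0.05, against 6.46% of all genes, and 0 of all genes were called.

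**Figure D4:**
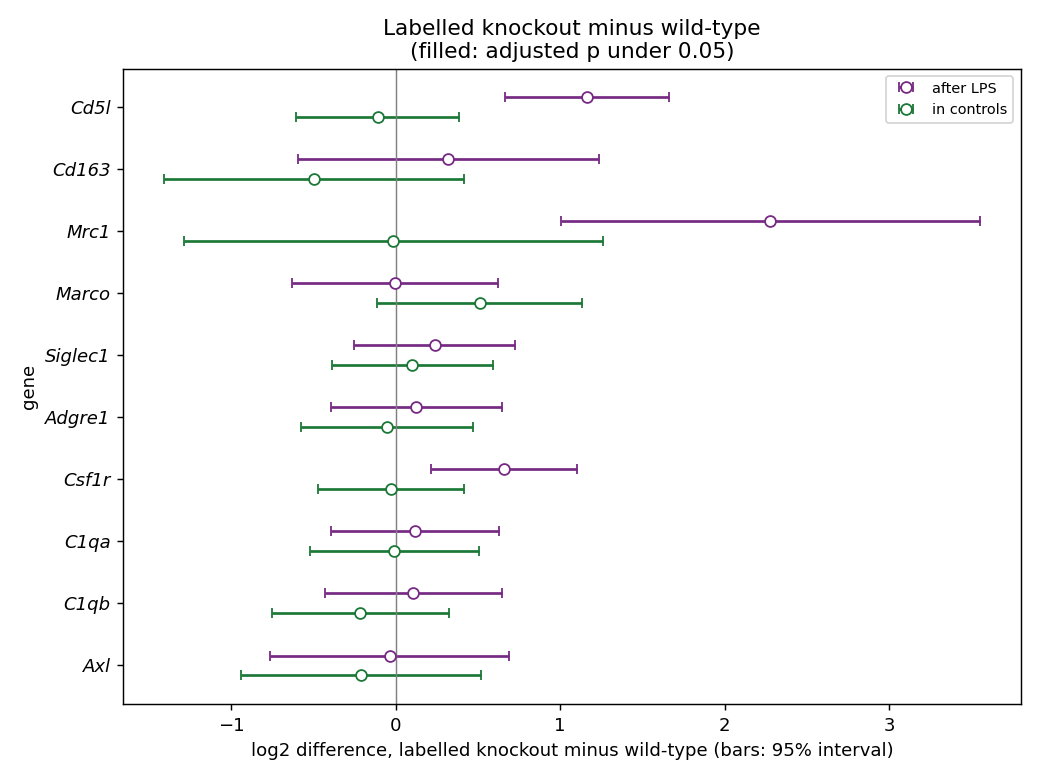
Labelled knockout minus wild-type difference (log2) of each marker with its 95% interval, after LPS and in controls. The intervals of Cd5l, Mrc1 and Csf1r lie above 0 after LPS, and all 10 intervals in controls include 0; no adjusted p is under 0.05.

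The neighbouring pathways of these markers were described by lists of genes that exclude the 10, and their counts stand against 14.3% of all genes called lower and 8.52% called higher in the averaged comparison. Haemoglobin and iron handling held the gene with the largest fall on the 7 pathway lists: Slc40a1, the iron exporter ferroportin, read 80, 139 and 203 in labelled knockout LPS arrays and 2684, 440 and 1800 in labelled knockout controls. Wild-type mice had 46, 25 and 24 after LPS and 3608, 2738 and 1580 in controls. Every LPS array was below every control. Averaged over both genotypes it fell by 4.83 ± 0.44 (limma adjusted p = 4.88e-05), a size limited by the background, since the wild-type LPS values lay at the dim end of the scale. Of the 11 iron genes measured, 5 fell and 2 rose (median -0.71), among them the haem transporter Slc48a1 (-1.26), the haem-haemopexin receptor Lrp1 (-1.06) and biliverdin reductase Blvra (-0.92). Haem oxygenase Hmox1 (-0.71, adjusted p = 0.0355) and haptoglobin Hp (1.70, adjusted p = 0.0466) were called with all arrays, and lost the call when any of 7 and of 10 of the 12 arrays was left out. Within every group Hp ranked the arrays in the same order as the summed hepatocyte markers. In wild-type controls it read 89, 721 and 229, where those sums were 266, 3867 and 1341. The part of liver transcripts in the Hp rise was not tested.

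Genes grouped around CSF1R and AXL form the next lists. Of 8 genes on the list of CSF1R ligands and signalling, 1 fell and 1 rose, against 22.9% of all genes called. The adaptor Tyrobp fell by 0.97 ± 0.20 (limma adjusted p = 0.00625). Csf2ra and Csf2rb on this list are chains of other cytokine receptors and not of CSF1R. Csf2rb was the gene that rose, by 0.76 (limma adjusted p = 0.0351), a call lost when any of 8 of the 12 arrays was left out. Of 12 genes of TAM receptors and uptake of dying cells, 3 fell and 1 rose. Gas6, the ligand of Axl and Mertk, read 156, 231 and 144 in labelled knockout LPS arrays, 302, 550 and 465 in labelled knockout controls, 97, 115 and 96 in wild-type LPS arrays and 274, 292 and 549 in wild-type controls. It fell by 1.54 ± 0.22 (limma adjusted p = 0.000754), with no overlap in either genotype. Mertk (-0.88), Cd36 (-1.76) and Elmo1 (0.77) were also called, but each lost its call when any of 7 or 8 of the 12 arrays was left out.

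Among 12 other scavenger receptors 3 fell and 1 rose. Stab2, a hyaluronan and scavenger receptor of sinus endothelium, fell by 2.39 ± 0.20 (limma adjusted p = 2.61e-05), and Cxcl16, a chemokine that also binds oxidised lipoprotein, rose by 1.22 ± 0.21 (limma adjusted p = 0.00258). Scara5 (-0.70) read between 11 and 26 on all arrays, and Cd36 completes the count. Among 15 lectins and sialic acid receptors 6 fell and 1 rose: Cd209a (-1.68), Cd209d (-1.20), Cd209b (-1.18) and Clec4a2 (-1.10) fell, while Mrc2 (-0.70) and Siglece (0.93) lost their calls when any of 5 and any of 4 of the 12 arrays was left out. Mrc2 read between 10 and 36 on all arrays. Cd209d read between 24 and 31 on the LPS arrays, and Cd209a between 20 and 26 on the wild-type LPS arrays. The sizes of these falls are limited by the background. Cd209b, a marker of marginal zone macrophages, lost its call without wild-type LPS 3 (adjusted p = 0.0514).

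Of 17 macrophage transcription factors 4 rose and 2 fell. The nuclear receptors Rxra and Pparg fell by 1.96 ± 0.20 and 1.83 ± 0.20 (limma adjusted p = 8.81e-05 and 0.000136), and the size for Pparg is limited by the background, since it read 20 to 32 on the LPS arrays. Cebpb (2.11), Bhlhe40 (1.26), Irf4 (1.26) and Irf8 (0.84) rose. Spic, the factor needed for red pulp macrophages and named here after its values were seen, read 573, 470 and 1006 in labelled knockout LPS arrays, 592, 143 and 334 in labelled knockout controls, 915, 426 and 581 in wild-type LPS arrays and 497, 488 and 261 in wild-type controls. It was not called (0.85 ± 0.36, limma adjusted p = 0.134).

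Of 13 other red pulp macrophage markers, some of them also on the lists above, 7 fell and 0 rose: Slc40a1, Vcam1 (-1.16, limma adjusted p = 0.00102), C1qc, Mertk, Hmox1, Fcna and Clec4n. Slc40a1 and Vcam1 were called with any 1 array left out, Vcam1 not without the arrays with lung transcripts (adjusted p = 0.0527). C1qc, Mertk, Hmox1 and Fcna lost their calls when any of 7 or 8 of the 12 arrays was left out, and Clec4n without labelled knockout LPS 1 or wild-type LPS 3 (adjusted p up to 0.0564). The number that fell was 2 without labelled knockout LPS 1, 3 without wild-type LPS 3, 3 without wild-type control 2, 4 without labelled knockout control 1, labelled knockout control 3 or wild-type LPS 1, and 2 with the arrays shifted to 1 median. The mean log2 intensity of the 13 ran from 8.65 to 9.0 in labelled knockout LPS arrays, from 8.93 to 9.47 in labelled knockout controls, from 8.17 to 8.42 in wild-type LPS arrays and from 9.31 to 9.52 in wild-type controls. After LPS 8 of the 13 were higher on all labelled knockout than on all wild-type arrays and none was called, where 8.73% of all genes were higher in this way (median 0.41, against 0.02 for all genes). Without the arrays with lung transcripts the number that fell was 3 for iron handling, 1 for these red pulp markers, 1 for lectins, 1 for scavenger receptors and 0 for TAM receptors.

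Markers of other spleen cells are given as counts, to be set against the 14.3% of all genes called lower and the 8.52% called higher. In the averaged LPS comparison 5 of 14 marginal zone and metallophilic macrophage markers fell and 1 rose, 5 of 16 monocyte markers fell and 3 rose, and 2 of 14 dendritic cell markers fell and 6 rose. Of 9 B cell markers 4 fell and 0 rose, of 11 T cell markers 5 fell and 1 rose, of 15 neutrophil markers 0 fell and 2 rose, and of 16 endothelial markers 4 fell and 3 rose. Of 9 red cell precursor markers 0 fell and 0 rose. The summed intensity of these 9 varied widely in controls, from 1092 to 23824 in labelled knockout and from 2323 to 12137 in wild-type mice. Their part in the results for the 10 markers was not tested. No gene of the 7 pathway lists was called between genotypes after LPS, in controls or in the interaction.

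**Figure D5:**
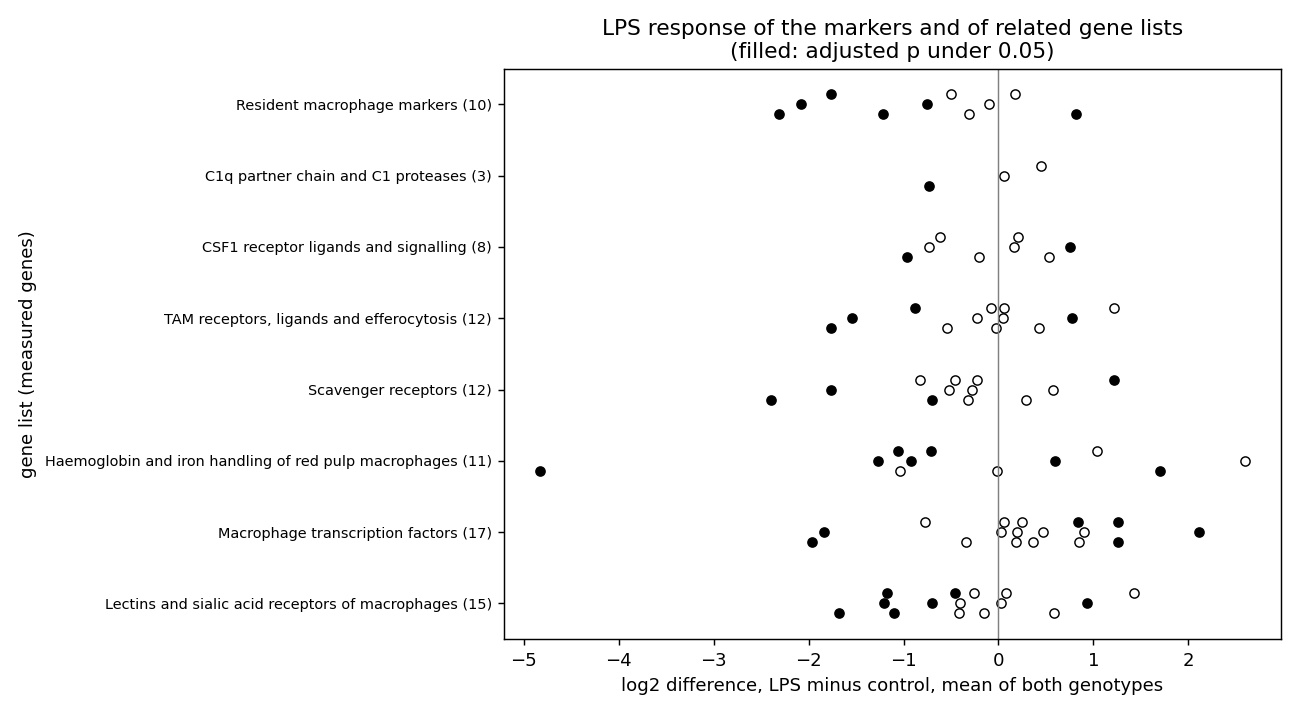
Averaged LPS difference (log2) of each gene of the pathway lists, with the 10 markers at the top. Points are genes and filled points have an adjusted p under 0.05. Slc40a1, at -4.83, is the farthest point to the left.

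The genes whose pattern over the 12 arrays was most like that of a marker were found by Pearson's r among 8090 genes left after dropping those in the dimmest 40% of probe sets by mean. The arrays fall into LPS and control sets, so r mostly carries that difference and is a description. For Cd5l they were Pilrb1 (0.965), Itgb5 (0.963), Cd300c2 (0.963), Kazald1 (0.959) and Slc40a1 (0.959). For Csf1r they were Kazald1 (0.975), Itgb5 (0.973), Stab2 (0.973), Fcgrt (0.973) and Abcc3 (0.971). Abcc3 was the one of these called between genotypes after LPS, higher in labelled knockout mice by 1.51 (limma adjusted p = 0.0483). For Axl the closest were Ccni (0.893), Phf8 (0.857) and Lrrc20 (0.853), none of them called after LPS in either genotype.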

How the data were processed

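Spleen RNA of individual mice (5 µg each) was hybridised to 12 arrays. The deposited values are 1 intensity for each probe set, not log-transformed, made by the authors with RMA per the submitters' processing notes; the version is not given in the sources used here. All values were whole numbers from 6 to 15228, array medians ran from 47 to 64 and no detection calls were used. Correlations between arrays of a group across probe sets ran from 0.909 to 0.989.

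From the deposited intensities, log2 values were fitted in R 4.3.3 with limma 3.58.1 (lmFit, eBayes) with 4 group means over 22626 probe sets, leaving out 64 controls. The 6 contrasts were two-sided with Benjamini-Hochberg adjustment over all probe sets. Each rests on 3 mice a group, which limits the precision. A gene was its probe set with the highest mean, _x_at sets left aside where another existed. Gene names came from the platform table (20380 probe sets named 1 gene, 691 several, 1555 none). Groups came from the sample titles.

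The 10 markers and the 21 lists (237 of 276 written members measured, 3 through a synonym) were chosen with earlier results of these data known. Up to 6 called genes of each pathway list were named, by size. Pairing by replicate number was looked at after the group mean of each probe set was subtracted. These deviations of same-numbered arrays correlated from -0.28 to 0.63 over 12 pairs, with 6 above 0.1. For labelled knockout and wild-type controls all 3 pairs were above 0.1. The fit was tested on simulated data. Alternatives changed scaling, low values, design and arrays.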

Additional observations from a re-analysis of the deposited data

How the results depend on the processing

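Each result was recomputed under 29 alternatives, or 28 for the averaged response and the interaction. The number of the 10 markers called was 3 for the LPS response in labelled knockout mice, and became 1 without the arrays with pancreatic transcripts and 0 without those with lung transcripts. It was 5 in wild-type mice, and became 3 with values under 32 set to 32 and 3 without the arrays with most hepatocyte transcripts. It was 6 for the averaged response, and became 3 without the arrays with lung transcripts. Between genotypes after LPS it was 0, and became 1 with cyclic loess (Cd5l) and 2 with array quality weights (Cd5l and Mrc1). With 1 array left out in turn the counts ran from 1 to 3 in labelled knockout mice, from 3 to 5 in wild-type mice, from 6 to 7 for the average and from 0 to 1 between genotypes after LPS. They were 0 throughout in controls and in the interaction. The fit with the replicate number as a block gave 3, 5, 6, 0, 0 and 0 markers called in the 6 contrasts, so pairing changed no count of markers called; C1qc (adjusted p = 0.0610) and Hmox1 (adjusted p = 0.0506) lost their averaged calls under it. Of 1714 recomputed marker values, 42 lost a call and 19 gained one, 100 uncalled values changed sign, and none that was called did. Over all genes the number called ran from 281 to 2504 in labelled knockout mice (1889 as reported), from 389 to 1890 in wild-type mice (1002), from 1294 to 3720 averaged (2833), from 0 to 1280 between genotypes after LPS (45), from 0 to 155 in controls (0) and from 0 to 102 in the interaction (0). In the averaged response, called genes that were higher made up 54.4% with the arrays shifted to 1 median, against 37.3% as deposited. Some list genes that kept the averaged call with any 1 array left out lost it elsewhere. Of 28 alternatives, Clec4a2 kept it in 24, and Tyrobp, Cd209a and Cd209d in 26. Lrp1, Gas6, Slc48a1, Blvra, Irf4 and Irf8 kept it in 27. Scara5 kept it in 24 of 27. The exclusions of arrays with most hepatocyte transcripts and both covariates were chosen after seeing the data. Without the arrays with pancreatic or with lung transcripts 1 labelled knockout control remained, and in the second case also 1 labelled knockout LPS array, each assumed to vary like the other groups. The same holds for the 1 wild-type control that remained without wild-type controls 2 and 3. Leaving out arrays leaves fewer samples, and the cause of the other changes was not tested.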
